A study of Mus musculus with 24 samples.

Results

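Manf and 9 chaperones of the endoplasmic reticulum were followed in the hippocampus of mice after fear conditioning. The 10 genes are Manf, Hspa5, Creld2, Sdf2l1, Pdia4, Pdia6, Hyou1, Calr, Dnajb11 and Hsp90b1, out of 47593 genes in the count table. Manf was chosen from a measured value, its lower level in Tob-KO than in WT libraries 3 h after conditioning. The others were chosen by name as chaperones of the same compartment, with earlier results of these data known. Differences between the genotypes at 3 h are therefore described and not tested.

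RNA sequencing covered the hippocampi of 24 male C57BL/6J mice aged 8 to 12 weeks, in 8 groups of 3. The groups were WT and Tob-KO (Tob knockout) mice, either naive (no conditioning) or culled 15 min, 1 h or 3 h after training with inescapable foot shocks. Both genotypes went through the same training, and naive mice went through none. Total counts were 28847989 to 41595972 per library, and levels are CPM, counts scaled by library size with TMM factors, each given per mouse or as mean ± SD. Tob1, the annotated gene of Tob, was counted at 33.9 to 44.5 CPM in the 12 WT libraries and at 52.1 to 68.3 CPM in the 12 libraries labelled Tob-KO. The targeted gene was thus higher, not lower, in every library labelled Tob-KO. Counts summed over a gene cannot show whether a part of it is missing, and the knockout allele is not described in the sources used here. All 8 markers of hippocampal excitatory neurons were present, with a summed level of 6628 to 8783 CPM. The summed level of 14 choroid plexus markers, all counted in the table, varied from 31.4 to 5124 CPM between libraries, which fell into 14 libraries with a high and 10 with a low marker score, divided at the gap between −2.07 and 0.34 of the mean log2 deviation.

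Proteins that enter the secretory pathway fold in the endoplasmic reticulum with the help of chaperones and disulfide isomerases. When unfolded protein accumulates there, the sensors Atf6, Ern1 and Eif2ak3 start the unfolded protein response, in which Atf6 and spliced Xbp1 raise chaperone transcription through promoter elements that the CCAAT-binding factor NF-Y also occupies. Neurons depend on this compartment for receptors, channels and secreted neuropeptides.

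The element best known for this control, the ERSE, has the letters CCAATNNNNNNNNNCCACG, a CCAAT box and CCACG with 9 bases between. It was searched on both strands in RefSeq promoters of GRCm38.p6, which hold 250 bases before and 50 after each gene's start. The table held promoters of 8 of the 10 genes, all but Manf and Hyou1. An ERSE was found in 5 of these 8 promoters, in 6 places, and in 39 of 32851 promoters overall (0.119%). The genes were chosen as chaperones, the class this element is known for, so these counts are background and not a test. Whether the 6 sites have a part in the shared movement of the genes described below was not tested. Each is printed 5′ to 3′ along the strand of its gene, with the fixed letters in capitals and 5 bases on either side.
Hspa5: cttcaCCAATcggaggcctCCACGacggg
Pdia6: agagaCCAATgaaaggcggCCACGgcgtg
Hsp90b1, distal: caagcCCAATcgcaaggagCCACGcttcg
Hsp90b1, proximal: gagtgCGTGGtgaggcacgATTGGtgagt
Creld2: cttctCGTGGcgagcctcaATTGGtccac
Calr: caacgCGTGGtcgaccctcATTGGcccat
The stretches lie at chr2:34772020-34772048 (forward strand) for Hspa5, chr12:17266486-17266514 (forward) for Pdia6, chr10:86705633-86705661 and chr10:86705528-86705556 (reverse) for Hsp90b1, chr15:88819515-88819543 (forward) for Creld2 and chr8:84847070-84847098 (reverse) for Calr. The elements of Hspa5, Pdia6 and the distal site of Hsp90b1 read in the direction of the gene, and the other 3 read against it, with CGTGG first and ATTGG last. They begin 65 bases before the start of Hspa5, 98 before that of Pdia6, 212 and 107 before that of Hsp90b1, 126 before that of Creld2 and 162 before that of Calr. These distances are from the RefSeq starts. In GENCODE vM21, the Hspa5 transcript begins further upstream, so that its element lies within the annotated first exon. The GENCODE starts of Pdia6 (17266545), Hsp90b1 (86705509) and Calr (84846934) also lie upstream of the RefSeq starts, nearer to the elements. The elements of Pdia6, Hsp90b1 and Calr lie outside the annotated transcripts. The shorter ERSE-II, ATTGGNCCACG, was found only in Dnajb11 among the 8, from 7 to 17 bases after the first base of the gene, and in 12 of 32851 promoters (0.037%). All 8 promoters held a CCAAT box, which is also part of the ERSE and which 37.4% of all promoters held on either strand. A match describes letters and not an occupied site.

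Per length of the principal GENCODE transcript, Calr was the most abundant of the 10 with 171 ± 24.8 CPM per kb (SD, n = 24). Calr encodes calreticulin, a lectin chaperone that binds glycoproteins and stores calcium. Hsp90b1, the Hsp90 of the endoplasmic reticulum, followed with 107 ± 14.0 CPM per kb, and Hspa5, the Hsp70 known as BiP, with 87.7 ± 16.04 CPM per kb. The disulfide isomerase Pdia6 stood at 54.97 ± 7.90 and Hyou1, an Hsp110-like nucleotide exchange factor, at 30.7 ± 3.09 CPM per kb. Dnajb11, a J-domain cochaperone of BiP, had 21.7 ± 2.05, Manf 19.8 ± 3.06 and the disulfide isomerase Pdia4 18.7 ± 2.89 CPM per kb. The lowest were Sdf2l1, a partner of Dnajb11, with 11.3 ± 2.82 and Creld2, a calcium-binding protein of the same compartment, with 10.2 ± 1.41 CPM per kb. Dnajb11, Manf and Pdia4 differed by less than 1 SD of either neighbour, as did Sdf2l1 and Creld2. Raw counts of the 10 genes were never below 272 in a library. Counting error was not small everywhere beside the spread between mice. Creld2 in Tob-KO mice at 15 min, for example, had 12.6 ± 0.18 CPM (SD, n = 3) from 378 to 532 counts.

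Manf encodes mesencephalic astrocyte-derived neurotrophic factor, a small protein that resides in the endoplasmic reticulum, binds BiP and can be secreted. The gene lies on the reverse strand of chromosome 9 of GRCm38 (106838312 to 106891979), and its principal transcript has 4 exons from 106887415 to 106891979. Its long gene model overlaps Rbm15b on the same strand and Dcaf1, Gm37612 and 4930524O07Rik on the other, so its count is uncertain to the extent that reads were shared. Naive WT mice had 44.9, 37.5 and 39.7 CPM of Manf and naive Tob-KO mice 35.02, 49.0 and 44.9 CPM. At 15 min, WT mice had 36.8, 61.3 and 50.1 CPM, and Tob-KO mice had 38.2, 38.2 and 40.8 CPM. The lowest WT mouse at 15 min lay below all 3 Tob-KO mice and the other two lay above them. At 1 h, the values were 44.7, 41.1 and 48.8 CPM in WT and 49.1, 43.9 and 40.5 CPM in Tob-KO mice, and the groups overlapped. At 3 h, WT mice had 57.5, 53.1 and 50.7 CPM and Tob-KO mice 39.96, 45.5 and 36.3 CPM, without overlap.

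Ordered by their means, the 8 groups ran from Tob-KO at 15 min (39.1 ± 1.51 CPM, SD, n = 3), Tob-KO at 3 h (40.6 ± 4.66), naive WT (40.7 ± 3.79) and naive Tob-KO (43.0 ± 7.20) to Tob-KO at 1 h (44.5 ± 4.33), WT at 1 h (44.9 ± 3.86), WT at 15 min (49.4 ± 12.3) and WT at 3 h (53.8 ± 3.40). Each of the 7 steps between neighbours was smaller than the larger SD of the pair. WT mice at 15 min had the widest spread and Tob-KO mice at 15 min the narrowest.

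**Figure D1:**
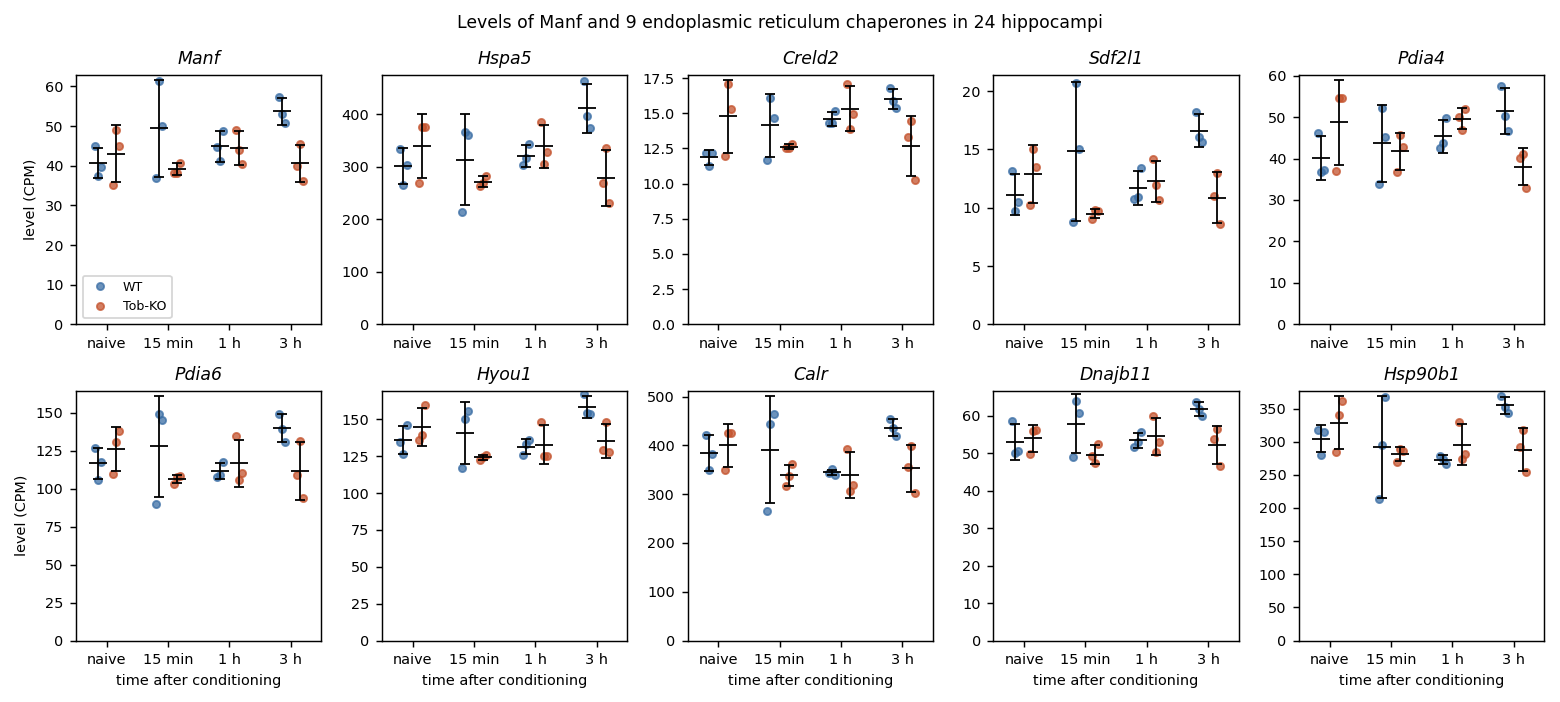
Level (CPM, from 0) of each of the 10 genes at the 4 times, with one point per mouse (WT blue, Tob-KO orange) and mean ± SD (n = 3) in black. The 3 WT mice at 3 h sat above the 3 Tob-KO mice for 9 of the genes, all but Pdia6, and WT mice at 15 min were spread widely, with 1 of the 3 low.

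BiP is the central Hsp70 of the compartment and holds the stress sensors inactive. Hspa5 ranged from 214 CPM in WT replicate 1 at 15 min to 463 CPM in WT replicate 1 at 3 h. In naive mice it stood at 334, 266 and 304 CPM in the WT group and 268, 375 and 375 CPM in the Tob-KO group. At 15 min it was 214, 367 and 360 CPM in WT and 263, 270 and 283 CPM in Tob-KO mice. Here too the first WT mouse was below every Tob-KO mouse and the others above. The 1 h values were 303, 316 and 344 CPM in WT and 385, 305 and 328 CPM in Tob-KO mice, and those at 3 h were 463, 397 and 374 CPM in WT and 269, 336 and 231 CPM in Tob-KO mice. The genotypes overlapped at 1 h and did not overlap at 3 h.

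Among the others, Sdf2l1 varied most and Dnajb11 least. The highest of the 24 libraries exceeded the lowest 2.40-fold for Sdf2l1, 2.17-fold for Hspa5, 1.43-fold for Hyou1 and 1.37-fold for Dnajb11, and between 1.66-fold and 1.75-fold for the remaining 6. Sdf2l1 at 15 min showed the pattern of Manf in a sharper form. It stood at 8.75, 20.7 and 15.0 CPM in the WT group and 9.01, 9.81 and 9.68 CPM in the Tob-KO group, so that 1 WT mouse was lowest and another had more than any other mouse of the series. At 3 h it was 18.2, 16.04 and 15.6 CPM in WT and 10.97, 12.97 and 8.64 CPM in Tob-KO mice.

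At 3 h, the contrast that picked Manf, all 10 genes had a lower mean in Tob-KO than in WT mice. Manf stood at 0.753 of its WT level, a log2 difference of −0.41. Sdf2l1 (−0.62, 0.652 of WT), Hspa5 (−0.56, 0.676) and Pdia4 (−0.44, 0.737) differed more, and Creld2 (−0.34), Pdia6 (−0.33), Calr (−0.31), Hsp90b1 (−0.31), Dnajb11 (−0.25) and Hyou1 (−0.23) less. The genes were chosen with this contrast known, and these values carry no test. The 3 Tob-KO mice lay below the 3 WT mice for 9 of the 10 genes, against 6.04% of the 18255 genes compared. Pdia6 was the exception, with 149, 139 and 131 CPM in WT and 109, 132 and 94.0 CPM in Tob-KO mice. The median log2 difference was −0.34 over the 10 genes and −0.00 over all genes compared, of which 50.7% were lower in Tob-KO mice. The narrowest gap was that of Hyou1, with 154 CPM in the lowest WT and 148 CPM in the highest Tob-KO mouse. In bulk tissue, fewer cells of a type and less RNA per cell cannot be told apart.

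The means of the genotypes lay on opposite sides of their naive levels at 3 h. Relative to naive mice of their own genotype, WT mice at 3 h had higher means of all 10 genes, from a log2 difference of 0.18 for Calr to 0.58 for Sdf2l1, with 0.40 for Manf and 0.45 for Hspa5. Tob-KO mice at 3 h had lower means of all 10, from −0.05 for Dnajb11 to −0.36 for Pdia4, with −0.08 for Manf and −0.28 for Hspa5. Both are descriptions of the libraries that picked Manf. The choroid plexus markers summed to 49.2, 2270 and 3020 CPM in the 3 WT libraries and to 66.4, 72.3 and 2200 CPM in the 3 Tob-KO libraries. The WT library with the low choroid plexus level, replicate 3, had 50.7 CPM of Manf, the lowest of the WT mice at 3 h. The Tob-KO library with the high level, replicate 1, had 39.96 CPM, between the 36.3 and 45.5 CPM of replicates 3 and 2. The part of choroid plexus in the difference at 3 h was not tested.

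**Figure D2:**
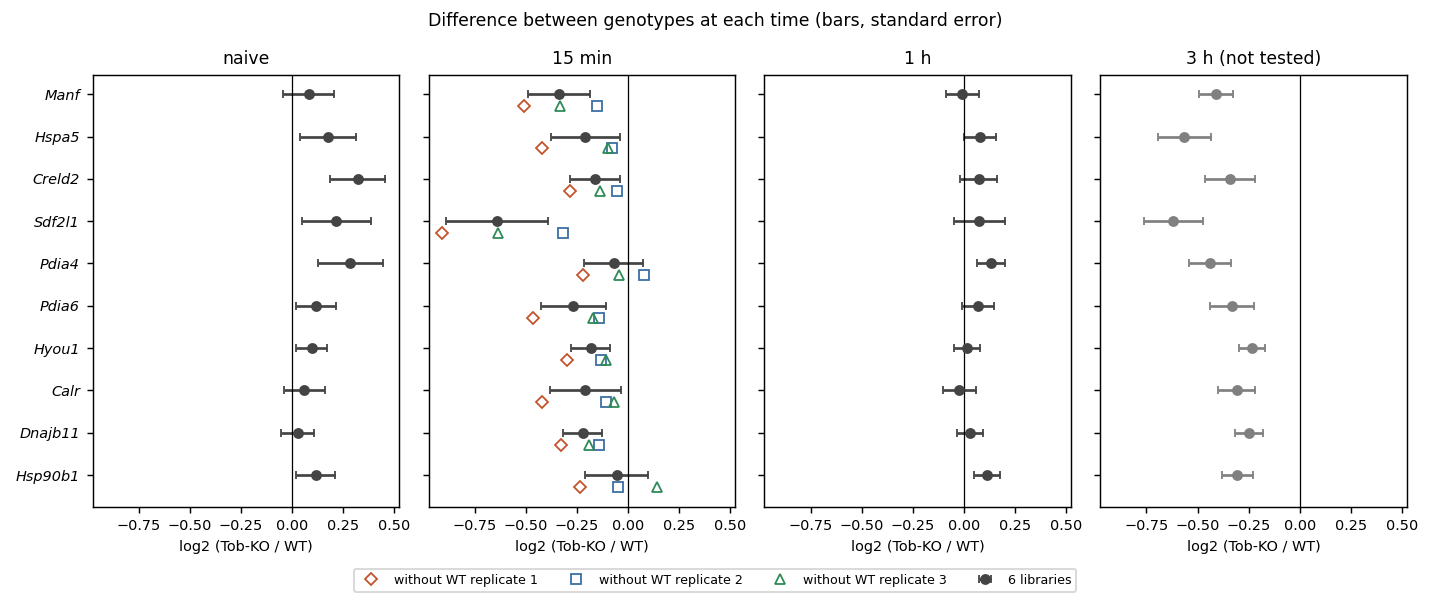
Log2 ratio of Tob-KO to WT for each gene at each time (x axis, bars are standard errors of the quasi-likelihood fit), with open symbols for 15 min without each WT mouse in turn (diamond, replicate 1, square, replicate 2, triangle, replicate 3). The points sit right of 0 for all 10 genes in naive mice and left of 0 at 15 min and 3 h, and at 15 min leaving out WT replicate 1 moved all 10 points left while leaving out replicate 2 or replicate 3 moved all 10 right.

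The question for the other times was whether the same genes differed between genotypes in libraries other than those that picked Manf. The genes were chosen with earlier results of these data known, so these comparisons are not fully independent of the choice. With the exact test of edgeR, limited to an FDR of 0.05 and a 2-fold difference, none of the 10 genes was called in naive mice (0.0218% of 18364 genes called), at 15 min (0.555%) or at 1 h (0.033%), and DESeq2 called none either. The direction of the means changed with time. Tob-KO means were higher for all 10 genes in naive mice (median log2 difference 0.12, largest 0.32 for Creld2), lower for all 10 at 15 min (median −0.21) and higher for 8 of 10 at 1 h (median 0.07). None of these differences passed the test, and the 10 genes are not independent because they moved together. At an unadjusted p under 0.05 there were 0 of the 10 in naive mice (4.04% of all genes tested), 3 at 15 min (8.05% of all genes; Sdf2l1, −0.64 ± 0.25 SE; Manf, −0.34 ± 0.15; Dnajb11, −0.22 ± 0.10; lowest FDR by the exact test 0.373) and 0 at 1 h (5.34% of all genes). Averaged over naive mice, 15 min and 1 h in 1 quasi-likelihood fit of all 24 libraries, again no gene passed an FDR of 0.05 (0.0974% of 19500 genes called), and 0 had an unadjusted p under 0.05, beside 13.9% of all genes. Manf gave a log2 difference of −0.09 with a 95% interval of −0.26 to 0.08 (FDR 0.657 by edgeR's quasi-likelihood test), and Hspa5 gave 0.02 (−0.18 to 0.22).

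The differences at 15 min depended on each of the 3 WT mice. WT replicate 1 was the lowest of all 24 libraries for Hspa5, Pdia6, Hyou1, Calr and Hsp90b1, and its 10 genes lay on average 0.37 below their means on the log2 scale, whereas WT replicates 2 and 3 lay 0.28 and 0.20 above and the Tob-KO mice 0.22, 0.15 and 0.12 below. With 3 mice a group and no limit on the fold change, 0 of the 10 genes passed the FDR limit (0.746% of 18364 genes). When WT replicate 1 was left out, an analysis chosen after its values were seen, 6 of 10 passed it (0.447% of 18135 genes), all lower in Tob-KO mice. They were Pdia6 (log2 difference −0.47, FDR 4.63e-06), Hspa5 (−0.42, FDR 0.00026), Sdf2l1 (−0.91, FDR 0.000479), Calr (−0.42, FDR 0.00294), Manf (−0.51, FDR 0.00507) and Hyou1 (−0.30, FDR 0.0193) by edgeR's exact test. Dnajb11 (−0.33, FDR 0.0594), Creld2 (−0.28), Hsp90b1 (−0.23) and Pdia4 (−0.22) did not pass, and no gene of the 10 reached a 2-fold difference. Leaving out any of the other 5 mice at 15 min, or any 1 mouse in the naive or 1 h groups, gave 0 of 10. Without WT replicate 2, all 10 differences moved towards or past 0, Manf to −0.15, Sdf2l1 to −0.32, Hspa5 to −0.08 and Pdia4 to 0.08. Without WT replicate 3 they moved the same way, Hspa5 to −0.10, Calr to −0.07 and Hsp90b1 to 0.14, with Manf at −0.33. The median difference of the 10 genes was −0.37, −0.12 and −0.12 without WT replicate 1, 2 and 3, and between −0.25 and −0.18 without 1 of the Tob-KO mice. WT replicate 1 had 34087027 counts and the lowest choroid plexus level, 31.4 CPM, beside 50.3 and 52.3 CPM in the other WT mice and 73.5, 1357 and 3504 CPM in the Tob-KO mice at 15 min, and their part in the difference was not tested.

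The next question was whether conditioning itself moved the 10 genes. Over both genotypes none passed the quasi-likelihood test at an FDR of 0.05 at 15 min (4.35% of 19500 genes called), at 1 h (5.89%) or at 3 h (0%) relative to naive mice, or between 1 h and 3 h (3.31%), and DESeq2 called none of them either. At an unadjusted p under 0.05 there were 0 of the 10 at 15 min (20.2% of all genes), 0 at 1 h (19.7%) and 0 at 3 h (8.95%), and 1 between 1 h and 3 h (16.4%), Hyou1, with the higher mean at 3 h (log2 change 0.15, FDR 0.248 by the quasi-likelihood test). At 3 h, 1746 of the 19500 genes had an unadjusted p under 0.05, none passed the adjustment, and DESeq2 called 10. Manf averaged 41.8 ± 5.29 CPM in naive mice, 44.2 ± 9.65 at 15 min, 44.7 ± 3.67 at 1 h and 47.2 ± 8.09 at 3 h (SD, n = 6), steps smaller than the spread. The 95% interval of its change from naive was −8.92% to 20.9% at 15 min, −7.34% to 23.0% at 1 h and −3.17% to 28.6% at 3 h. For Hspa5 the intervals were −23.0% to 8.22%, −12.9% to 22.4% and −10.6% to 25.6%. Changes within these bounds are not excluded. The median log2 change of the 10 genes was −0.05, 0.00 and 0.07 at the 3 times, beside 0.00, −0.00 and −0.01 over all genes.

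Within WT mice alone, no gene of the 10 was called at 15 min (0.0462% of all genes) or 1 h (0.185%), and Creld2 at 1 h was the only one with an unadjusted p under 0.05, beside 0 of the 10 and 8.71% of all genes at 15 min and 10.8% of all genes at 1 h (log2 change 0.30, 95% interval 0.03 to 0.57, FDR 0.401 by the quasi-likelihood test). In Tob-KO mice none was called at 15 min (2.51%) or 1 h (1.13%), although all 10 means were lower at 15 min than in naive Tob-KO mice (median log2 change −0.23). Hyou1 alone had an unadjusted p under 0.05 at 15 min (17.3% of all genes) and none had one at 1 h (15.6%). It had the lowest FDR of these, with a log2 change of −0.22 and an FDR of 0.202 by the quasi-likelihood test. Whether the change from naive differed between the genotypes was tested as an interaction, which passed for no gene of the table at 15 min (0%) or 1 h (0%), by edgeR or by DESeq2. At an unadjusted p under 0.05, the interaction at 15 min held 939 of 19500 genes (4.82%), among them 4 of the 10, Sdf2l1 (−0.85), Creld2 (−0.48), Manf (−0.41) and Hyou1 (−0.27), and that at 1 h held 809 genes (4.15%) and 0 of the 10. These comparisons within a genotype share the naive libraries with each other.

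The levels of the 10 genes rose and fell together from mouse to mouse. All 45 correlations between pairs of the 10 genes over the 24 libraries were positive, with a median Pearson r of 0.835 (0.578 to 0.962) and a median Spearman rho of 0.818. These are descriptions over libraries that share groups and a scaling to total counts. The median r of each gene with 14448 genes of at least 1 CPM lay between −0.03 and 0.01, and the median was 0.781 (0.466 to 0.945) over the 18 libraries without those at 3 h. Taken as deviations from group means, which removes genotype and time, the median r was 0.869 (0.610 to 0.980). It was 0.868 over the 12 WT and 0.847 over the 12 Tob-KO libraries, and 0.815 after leaving out the 2 libraries farthest from the median, WT replicate 1 at 3 h and WT replicate 2 at 15 min. Among the 14 libraries with a high and the 10 with a low choroid plexus score it was 0.811 and 0.887.

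**Figure D3:**
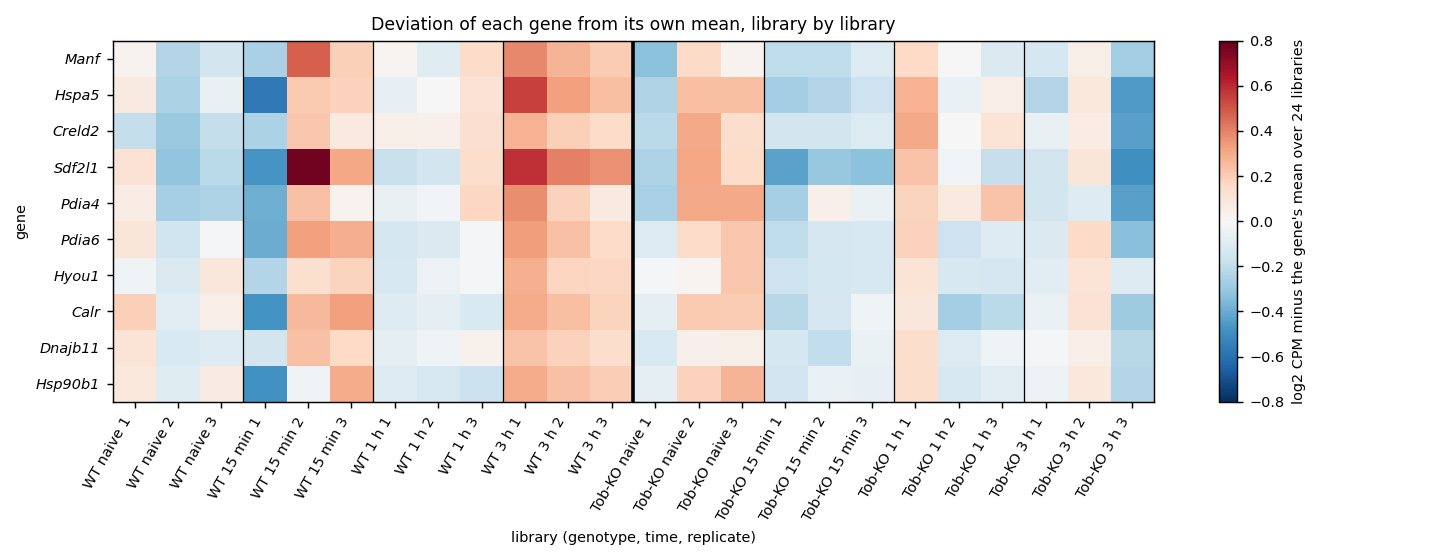
Deviation of each gene (rows) from its own mean over the 24 libraries on the log2 CPM scale (colour, red above and blue below), with one column per library. Whole columns share a colour, such as the 3 red WT columns at 3 h, the blue column of WT replicate 1 at 15 min and the blue column of Tob-KO replicate 3 at 3 h.

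Within a group the mice could differ by as much as the groups did. All 10 genes were above their own mean in Tob-KO naive replicates 2 and 3, on average by 0.19 and 0.18 on the log2 scale, and all 10 were below it in replicate 1, by 0.17. At 1 h, Tob-KO replicate 1 had all 10 genes above their means (0.18 on average), while replicates 2 and 3 had 2 and 3 genes above. WT mice at 3 h were alike, with all 10 genes above their means in each of the 3 mice (0.36, 0.24 and 0.19). Tob-KO mice at 3 h were not, with 0, 9 and 0 genes above their means. The average deviation had a median of −0.00 (−0.19 to 0.36) in the 14 libraries with a high choroid plexus score and of −0.07 (−0.37 to 0.28) in the other 10. Related genes followed the average deviation to different degrees over the 24 libraries, described by r and without a test. The mean of 12 measured genes of endoplasmic reticulum associated degradation gave 0.934, that of 21 other folding genes 0.719, that of cytosolic heat shock genes 0.548, that of 15 unfolded protein response factors 0.508 and that of 16 genes of translocation and early secretion 0.325. Targets of Atf4 and Ddit3 gave −0.08 and immediate early genes −0.21. Among cell type markers, r ran from −0.42 for oligodendrocytes and −0.31 for inhibitory neurons to 0.05 for endothelium and 0.24 for choroid plexus. Total counts gave −0.33. The part of these in the shared deviations was not tested.

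The 10 genes most like Manf, by Pearson r over the 24 libraries, were Sdf2l1 (0.96), Dnajb11 (0.92), Mlec (0.90), Hspa5 (0.88), Pdia6 (0.87), Creld2 (0.83), Xbp1 (0.80), Umps (0.78), Pdia4 (0.78) and Chtf8 (0.77) among 14448 genes. Of these, 6 belong to the set described here. Mlec encodes malectin, a lectin of the endoplasmic reticulum, and Xbp1 a transcription factor of the unfolded protein response, while Umps is an enzyme of pyrimidine synthesis. Calr ranked 13, Hyou1 18 and Hsp90b1 67, so that the other 9 genes of the set all ranked 67 or better. For Hspa5 the nearest were Pdia6 (0.92), Sdf2l1 (0.90), Dnajb11 (0.88), Creld2 (0.88), Pdia4 (0.88), Manf (0.88), Pdia3 (0.88), Chordc1 (0.85), Chtf8 (0.85) and Hyou1 (0.84). Pdia3 encodes another disulfide isomerase of the same compartment. Manf and Hspa5 had r = 0.811 over the 18 libraries without those at 3 h. The pair most alike was Manf with Sdf2l1 and the pair least alike Pdia4 with Hyou1 (0.578).

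**Figure D4:**
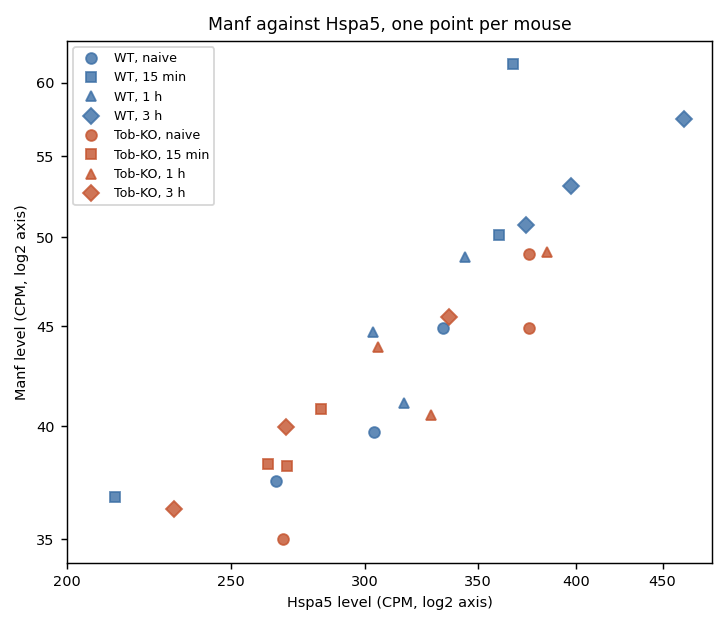
Manf against Hspa5 (CPM, both axes on a log2 scale), one point per mouse, coloured by genotype and shaped by time. The 24 points follow 1 line (r = 0.878, Spearman rho 0.919), with the WT mice at 3 h at its upper end and WT replicate 1 at 15 min, Tob-KO replicate 3 at 3 h and Tob-KO replicate 1 of the naive mice at its lower end.

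Related genes were taken from 7 lists, chosen with earlier results of these data known. Their counts are over both genotypes by the quasi-likelihood test at an FDR of 0.05. Of all 19500 genes, 4.35% passed in either direction at 15 min, 5.89% at 1 h and 0% at 3 h against naive mice. From 1 h to 3 h, 3.31% passed. Immediate early genes, which neurons transcribe within minutes of activity, rose after training. All 8 were higher at 15 min, among them Egr2 (log2 change 2.70 ± 0.28 SE), Fos (2.13 ± 0.20) and Npas4 (1.62 ± 0.15), 7 of 8 were still higher than naive at 1 h, and 7 of 8 fell from 1 h to 3 h.

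At 1 h, 3 of 15 sensors and factors of the unfolded protein response were higher than in naive mice and none was lower, beside 5.89% of all genes called. They were Nfya, a subunit of NF-Y (0.26 ± 0.06, FDR 0.0139), Xbp1 (0.26 ± 0.07, FDR 0.0469) and Atf4, the factor translated when the sensor kinase Eif2ak3 is active (0.18 ± 0.04, FDR 0.0199, all by the quasi-likelihood test). Of 12 measured genes of endoplasmic reticulum associated degradation, Herpud1, which helps assemble the ubiquitin ligase complex, rose (0.25 ± 0.05, FDR 0.00898 by the quasi-likelihood test), from 40.8 to 48.4 CPM. Xbp1 rose from 66.8 to 79.7 CPM. None of 21 other folding genes and none of 16 genes of translocation and early secretion passed in either direction at any time, and neither did the 10 genes described here. With 5.89% of all genes called at 1 h, 0 or 1 gene in lists this short is near the share over all genes. The change of Hspa5 at 1 h was 0.05 with a 95% interval of −0.20 to 0.29. That of Manf was 0.09 with −0.11 to 0.30. Both intervals include the changes of Xbp1 and Herpud1, as do those of Creld2, Sdf2l1 and Pdia4. The intervals of Pdia6, Hyou1, Calr, Dnajb11 and Hsp90b1 end below both changes, at 0.12, 0.05, 0.02, 0.14 and 0.03. Whether Xbp1 and Herpud1 differed from the 10 genes was not tested.

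Of 11 targets of Atf4 and Ddit3, 2 rose at 15 min and 3 at 1 h, and none fell. For these and the heat shock genes below, the shares of all genes called in either direction were 4.35% at 15 min and 5.89% at 1 h. Slc7a11, the cystine transporter, rose at 15 min (0.55 ± 0.10) and was higher at 1 h (0.49 ± 0.10). In the same list, Ppp1r15a, which restarts translation, also rose at 15 min (0.23 ± 0.06), and Atf3 (1.11 ± 0.26) and Ddit4 (0.47 ± 0.14) rose at 1 h. Of 10 cytosolic heat shock genes, 1 rose at 15 min, Dnajb1 (0.27 ± 0.07), and 3 at 1 h (median of the list −0.02 and 0.07), namely Dnajb1 (0.59 ± 0.07), Bag3 (0.35 ± 0.08) and Hspa1a (0.50 ± 0.14). The counterparts of the cytosolic Hsp70 Hspa1a and J-domain protein Dnajb1 in the endoplasmic reticulum, Hspa5 and Dnajb11, changed by 0.05 ± 0.12 and 0.01 ± 0.06 at 1 h and were not called. Atf3, Ddit4, Slc7a11, Dnajb1, Bag3 and Hspa1a all fell from 1 h to 3 h, by 0.33 (Bag3) to 1.02 (Atf3) on the log2 scale. At 3 h no gene of any list passed the test against naive mice, and none passed the test between the genotypes averaged over the naive, 15 min and 1 h mice.

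**Figure D5:**
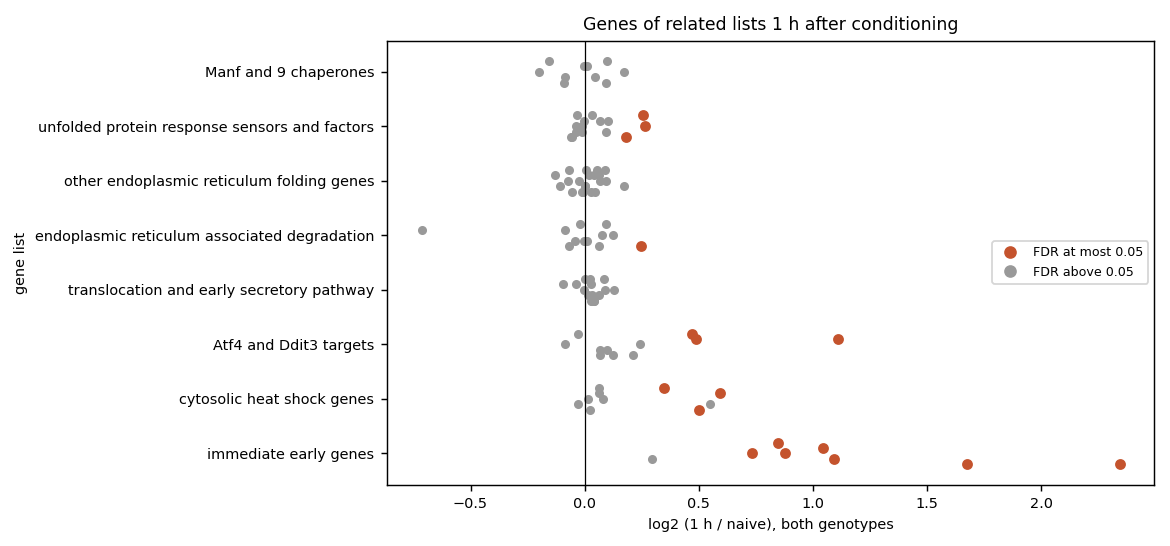
Log2 change from naive to 1 h over both genotypes (x axis), one point per gene and one row per list, with genes past an FDR of 0.05 in orange. The 10 genes of the top row lie between −0.20 and 0.17 with none past the limit, and orange points appear among unfolded protein response factors (3), degradation (1), Atf4 and Ddit3 targets (3), cytosolic heat shock genes (3) and immediate early genes (7). Of all 19500 genes, 5.89% passed the limit at 1 h.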

How the data were processed

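Directional libraries were made from poly(A) RNA (8 PCR cycles) and read as 150-bp pairs. Per the submitters' processing notes, reads were mapped to GRCm38 with STAR 2.6.1d and counted on genes with HTSeq 0.9.0. The authors deposited a table of unnormalized read counts per gene for 24 libraries. The annotation, the strand setting and the treatment of reads shared by genes are not given in the sources used here, so overlapping genes such as Manf and Rbm15b, and Calr with its pseudogene Calr-ps, are uncertain. Of the gene names, 27 were dates.

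Genotypes were compared at each time with edgeR's exact test (edgeR 4.0.16, R 4.3.3) under the study's settings of TMM scaling, at least 0.2 CPM in 2 of 6 libraries, FDR and p at most 0.05 and a 2-fold difference or more. Time, interaction and the mean genotype difference were tested by quasi-likelihood (edgeR) in 1 model of the 8 groups over 24 libraries, with 16 residual degrees of freedom and no fold limit. All 10 genes passed every filter. P-values are Benjamini-Hochberg adjusted over all genes tested, and standard errors and 95% intervals come from the quasi-likelihood fits. Correlations used log2 CPM with a prior count of 2. TMM moved the median log2 change by at most 0.02 against library size alone. Replicates of a group differed by a chi-square of 3.68 to 22.8 per degree of freedom, so none was a repeated library. The labels call them biological replicates. Counting error, taken from the number of reads, does not include the spread between mice.

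Named genes were the 10 members, Tob1, up to 3 genes with the lowest p per list and comparison, and the 10 genes most like Manf and Hspa5. The members and lists were chosen with earlier results of these data known. Positions are from GENCODE vM21 (GRCm38), promoters from RefSeq (GRCm38.p6). Alternatives were DESeq2 1.42.0, the other edgeR test, RLE size factors, no filter, no fold limit, only the groups compared, a replicate block, the choroid plexus score as covariate and leaving out each library. Scripts were tested on simulated data.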

Additional observations from a re-analysis of the deposited data

How the results depend on the processing

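None of the 10 genes was called in any of the 14 tested comparisons, and this held in all 366 alternatives at the limits of each comparison, DESeq2, RLE size factors, no filter, only the groups compared, the choroid plexus score as covariate and each library left out among them. Of 3660 log2 changes of single genes under alternatives, 177 had the opposite sign to the value reported, none of them called and none above 0.17 in size. With the FDR limit alone and no fold limit, which was added after the data were seen, leaving out 1 library gave 0 to 6 genes at 15 min, with 6 only without WT replicate 1, and 0 in naive mice and at 1 h.

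The same replicate numbers occur in each group, but in 0 of 12 pairs of groups were all 3 correlations of same-numbered mice over 0.1. In 1 of 28 pairs did every mouse correlate best with its own number. No pairing by number was thus seen, though low correlations cannot show that same-numbered mice shared no batch or day. The replicate block called 0 of the 10 genes in every comparison and moved the count of all genes called at 1 h over both genotypes from 1148 to 1018.

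Counts of all genes called, the background of the report, depended more on the processing. Between genotypes at 15 min they were 102 by the exact test, 35 by DESeq2, 0 by the quasi-likelihood test and 30 to 252 with 1 library left out. At 15 min over both genotypes they were 848, 1130 by DESeq2, 103 with only the groups compared and 317 to 1315 with 1 library left out. For the mean genotype difference they were 19, 159 by DESeq2 and 39 without a filter, and for 1 h 1148 and 572 to 1262 with 1 library left out. In Tob-KO mice at 15 min they were 490, 5 with only the groups compared, 810 by DESeq2 and 40 to 817 with 1 library left out, and at 1 h 220, 123, 558 and 0 to 411. In WT mice they were 9, 0, 33 and 1 to 15 at 15 min and 36, 27, 149 and 0 to 69 at 1 h, in the same order, with 20 at 15 min without a filter. Between genotypes they were 4 in naive mice (1 by quasi-likelihood, 4 to 53 with 1 library left out) and 6 at 1 h (0 and 4 to 155), and with no fold limit 7 and 22. From 1 h to 3 h they were 645 and 315 to 753 with 1 library left out.

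With 272 to 15081 counts per gene and library, the spread between the 3 mice of a group was mostly larger than counting error. This did not hold for every gene and group, such as Creld2 and Hyou1 in Tob-KO mice at 15 min.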
